A study of Drosophila melanogaster with 24 samples.

Results

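The 20 Drosophila embryo libraries that carry an shRNA against HDAC3 were set as a whole against the 4 control libraries, out of 24 libraries in the series. Membership came from the sample labels alone, and each of the 5 shRNA-carrying genotypes had equal weight. HDAC3 shRNA embryos are named by the genotype tub-GAL4/shRNA HDAC3, with no rescue transgene. The rescueWT genotype has in addition an shRNA-resistant HDAC3 transgene of normal sequence. The rescueY303F, rescueK26A and rescueHEBI genotypes have the same kind of transgene with a mutated HDAC3. The study reports that rescueY303F embryos also held much RNA from the resident HDAC3 locus, and that rescueWT restored HDAC3 only in part. The control genotype was tub-GAL4/+, with the driver and without the hairpin. All groups were whole embryos aged 2 to 4 h, with 4 replicates each. The study describes tub-GAL4 as a maternal driver, so the hairpin was made in the mothers' germline. The genotypes named above are thus those of the mothers. In the study's hatching assay these females were mated to males of the same cross, so embryos of a group can differ in genotype. The fathers of the sequenced embryos are not described separately. It places the hairpin at the attP2 landing site on chromosome 3 in a stock marked with y, sc, v and sev alleles, and every rescue fragment at attP40 on chromosome 2. The comparison asks what stays different from control in every rescue. The background of the shared stock and a change that no transgene reversed cannot be told apart here, since every shRNA-carrying genotype has both.

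HDAC3 is a histone deacetylase that works in a complex with the corepressor SMRTER, and removes acetyl groups from histone tails. Early fly embryos live on RNA loaded by the mother until their own genome takes over. A maternal hairpin acts before that handover. A fly stock also carries its marker alleles, landing sites and linked chromosome stretches along with its transgene.

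Library totals were 9987223 to 26573692 counts. Levels are given as CPM, the usual scaling of counts to a common library size, here with the TMM factors of edgeR. A gene was called at an adjusted p of at most 0.05 and a change of at least 2-fold in edgeR's quasi-likelihood test, with the replicate number as a block. Labels do not say that replicates came from separate crosses, so the p-values measure the spread between these libraries. The target could not be used to check the labels: HDAC3 and CG45100, a gene model that shares its exons, were at 0 in all 24 libraries. Its neighbours inside and beside the rescue fragment were counted, and are described with the markers of the stock.

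Of 10003 genes tested, 1106 (11.1%) were called between the pooled shRNA carriers and control, 83 higher (0.83%) and 1023 lower (10.2%). Most of these did not hold genotype by genotype. Of them, 30 genes (0.3%) passed in every one of the 5 genotypes, judged by the highest of their 5 p-values, with 9 higher (0.09%) and 21 lower (0.21%). On its own HDAC3 shRNA had 275 genes higher than control (2.75%) and 1734 lower (17.3%), rescueWT 53 (0.53%) and 148 (1.48%), rescueY303F 105 (1.05%) and 480 (4.8%), rescueK26A 88 (0.88%) and 1111 (11.1%), and rescueHEBI 79 (0.79%) and 3.03% of the tested genes. All 5 comparisons share the 4 control libraries, so an unusual control value enters each of them. The 20 carrier libraries lay wholly outside the control range for 25 of the 30 genes, 7 higher and 18 lower, where 0.83% of all tested genes did so. Set against the control library of its own replicate number, each of the 20 carrier libraries lay on the same side for all 30 genes, and for 8.01% of all tested genes. The 30 were chosen by their difference from these same control libraries, so both counts describe the choice and are not separate support. Without the replicate block the pool called 38 higher and 671 lower, and 4 higher and 8 lower genes passed in every genotype. Among the 30 were 19 genes known only by a CG or CR number. Most were of low abundance: 13 of the 21 lower genes averaged under 5 CPM in control embryos.

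Genes that were higher in every shRNA-carrying genotype came first in size with CG31683 (FBgn0051683), on 2L from 20447734 to 20449964 in the BDGP6.54 annotation. Its level was 1.11 CPM in the lowest carrier library, 3.06 at the median and 4.21 in the highest, against 0.197, 0.119, 0.121 and 0.160 CPM in the 4 control libraries. Every carrier library was above every control library. The pooled log2 fold change was 4.09 ± 0.27 (SE, edgeR adjusted p = 5.82e-09), with 3.80 in HDAC3 shRNA, 3.37 in rescueWT, 4.31 in rescueY303F, 4.52 in rescueK26A and 4.47 in rescueHEBI. The 4 control libraries together held 11 reads of this gene, so the size of the fold rests on few counts.

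CG31221 (FBgn0051221, 3R, 19412689 to 19460311) behaved alike. Carrier libraries ranged from 3.46 to 22.5 CPM with a median of 9.47, and control libraries had 0.295, 0.179, 1.03 and 0.746 CPM. No carrier library came near the control range. The pooled log2 fold change was 4.05 ± 0.37 (edgeR adjusted p = 4.02e-07), and the genotypes lay between 3.65 in rescueK26A and 4.44 in rescueY303F. The gene thw (3R, 7224414 to 7241138) had 2.58, 8.57 and 24.3 CPM as lowest, median and highest carrier value, against 0.295, 0.716, 2.24 and 0.480 CPM in control embryos. The lowest carrier and the highest control library of thw were close, and the pooled log2 fold change was 3.51 ± 0.31 (edgeR adjusted p = 2.84e-07). Without the replicate block, thw no longer passed in every genotype.

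The gene y, which makes the yellow protein needed for black cuticle pigment, was the only member of the stock's marker genes that was called. It sits on X from 356509 to 361245. Carrier libraries had 7.72 CPM at the lowest, 16.9 at the median and 47.0 at the highest, against 1.23, 1.61, 3.20 and 1.44 CPM in control embryos. The groups did not overlap. The pooled log2 fold change was 3.36 ± 0.27 (edgeR adjusted p = 7.73e-08), and each genotype was between 2.99 (rescueY303F) and 3.76 (rescueK26A). Landing sites of the attP2 kind carry a copy of y as a marker, and gene counts do not separate reads of such a copy from reads of the gene on X. Its part in the y level was not tested.

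**Figure D1:**
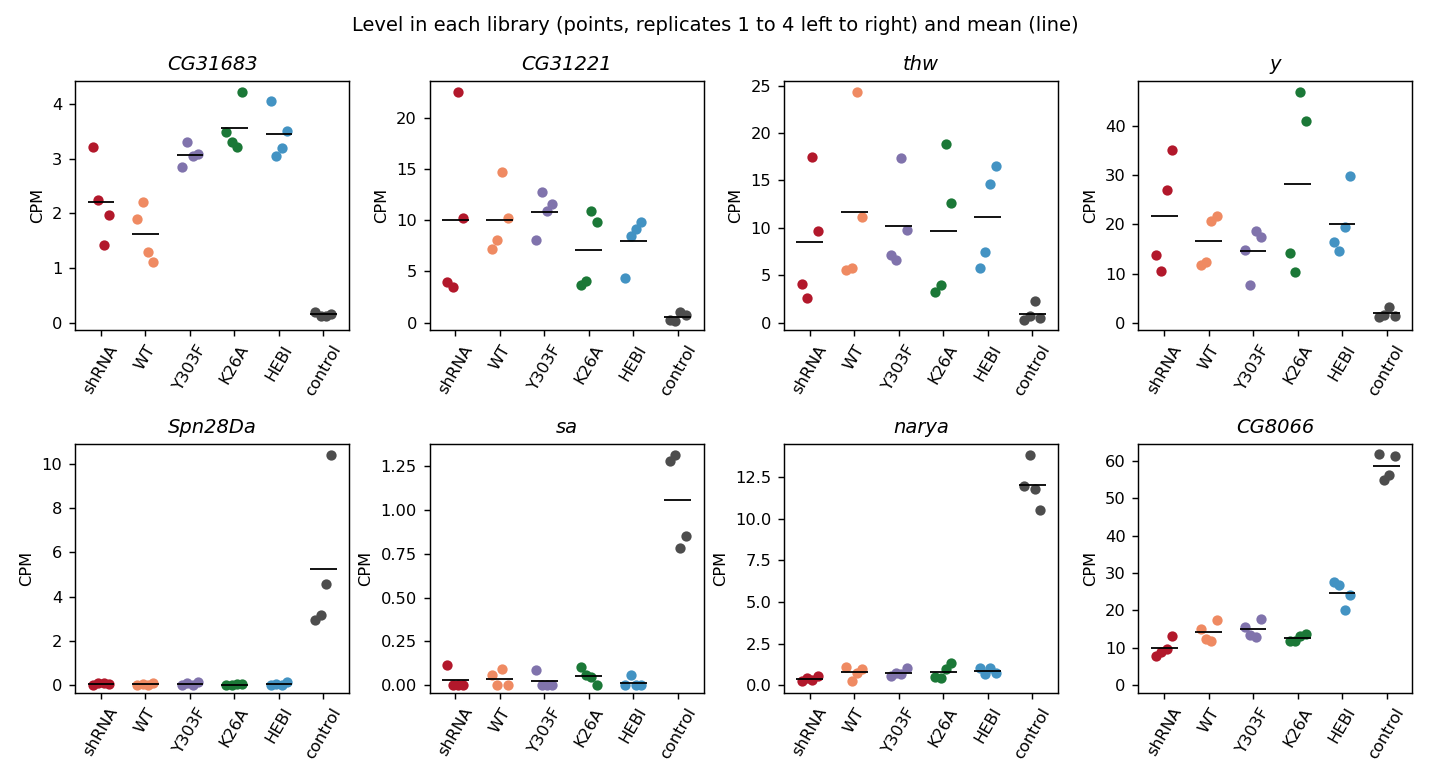
Level of 8 of the 30 genes in every library, in CPM (linear axes from 0), by genotype, with a point for each replicate and a line at the mean of the 4. The upper 4 genes are higher and the lower 4 are lower in all 20 shRNA-carrying libraries than in any of the 4 control libraries; narya averaged 0.379 to 0.872 CPM in the carrier genotypes and 12.0 CPM in control.

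The other 5 higher genes had smaller changes. CG12522, a gene of 3L, lies 37.7 kb from the start of Mocs1, the gene at which the attP2 site sits. Its carrier libraries ranged from 0.408 to 5.96 CPM (median 2.12), against 0.0493, 0.417, 0.0604 and 0.693 CPM in control libraries, and the pooled log2 fold change was 3.0 ± 0.42 (edgeR adjusted p = 4.38e-05). The lowest carrier libraries thus fell inside the control range, but each was above the control library of its own replicate number. CG14186 had 0.683 to 7.12 CPM in carrier libraries (median 2.92), against 0.542, 0.238, 0.846 and 0.906 CPM in control libraries, with a log2 fold change of 2.07 ± 0.19 (edgeR adjusted p = 5.99e-07). It, too, overlapped the range of all 4 control libraries while every carrier library was above the control of its own number.

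CG32187, CG17919 and CG32104 did not overlap with control. CG32187 had 3.47 to 6.90 CPM in carrier libraries (median 4.52), against 0.690, 0.537, 1.57 and 3.15 CPM in control libraries. Its control values differed more among themselves than its carrier values did. The log2 fold change was 1.74 ± 0.26, and the sides differed, at 2.84 for replicates 1 and 2 and 1.0 for replicates 3 and 4. CG17919, which encodes a protein of the PEBP family, had 16.6 to 59.8 CPM in carrier libraries (median 29.3), against 9.80, 10.4, 8.33 and 10.9 CPM in control libraries. It changed by 1.60 ± 0.10 in log2 (edgeR adjusted p = 2.15e-09). CG32104 had 35.8 to 58.2 CPM in carrier libraries (median 43.9), against 16.5, 12.2, 25.9 and 28.4 CPM in control libraries. At a log2 fold change of 1.13 ± 0.12 it was the smallest of the higher calls, its 5 genotypes lay between 1.08 and 1.18, and the pooled change was 0.97 without control replicate 2.

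Among genes lower in every genotype, the serpin gene Spn28Da was first. Serpins are inhibitors of serine proteases. It lies on 2L from 7887693 to 7889129. Carrier libraries had 0 CPM at the lowest, 0.0419 at the median and 0.169 at the highest, against 2.96, 3.16, 4.59 and 10.4 CPM in control embryos. All 20 carrier libraries together held 20 reads of it, 9 of them with none, where the 4 control libraries held 384. In the pool it changed by -6.72 ± 0.36 (edgeR adjusted p = 1.63e-10), and it lay between -7.35 in rescueK26A and -6.36 in HDAC3 shRNA. A library of this depth cannot show whether the remaining RNA is at 0.

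CG14000, CG46025 and sa were also near the limit of detection in carrier embryos, each with 12 of 20 carrier libraries at 0. CG14000 had at most 0.175 CPM in a carrier library, against 1.23, 1.43, 1.45 and 2.08 CPM in control libraries (log2 fold change -5.40 ± 0.49, edgeR adjusted p = 4.03e-07). CG46025 had at most 0.301 CPM, against 0.542, 0.656, 1.99 and 2.50 CPM in control libraries (-5.38 ± 0.49, edgeR adjusted p = 1.56e-06). In rescueWT no read of CG46025 was counted in any of the 4 libraries, which makes its mean at least 40.5-fold lower than in control at a limit of 3 counts over the group. The gene sa (3L, 21405425 to 21406738) encodes a testis form of a subunit of the general transcription factor TFIID, which spermatocytes need. It had at most 0.117 CPM in a carrier library, against 1.28, 1.31, 0.785 and 0.853 CPM in control libraries (-5.05 ± 0.46, edgeR adjusted p = 4.03e-07). These 4 genes share a pattern of little or no RNA in carriers and a low level in control.

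The X-linked gene narya (19475063 to 19476055), a RING finger gene with a part in meiotic recombination, had enough reads in all libraries to give levels. Carrier libraries had 0.233, 0.705 and 1.32 CPM as lowest, median and highest value, against 12.0, 13.8, 11.8 and 10.6 CPM in control embryos. The highest carrier library was far below the lowest control library. Its log2 fold change in the pool was -4.17 ± 0.20 (edgeR adjusted p = 7.19e-11). The genotypes were -4.99 in HDAC3 shRNA, -4.02 in rescueWT, -4.08 in rescueY303F, -3.95 in rescueK26A and -3.80 in rescueHEBI.

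CG13937 (3L, 1876551 to 1883041) had 0.519 to 2.16 CPM in carrier libraries with a median of 1.10, against 19.95, 28.3, 13.6 and 12.9 CPM in control libraries. It changed by -4.07 ± 0.21 (edgeR adjusted p = 1.11e-10). Lkr, the receptor of the neuropeptide leucokinin, had 0.0519 to 0.780 CPM in carrier libraries (median 0.260), against 3.45, 2.62, 4.35 and 4.10 CPM in control libraries (-3.52 ± 0.31, edgeR adjusted p = 2.91e-07). For both genes every carrier library was below every control library. CG13032 had 0.0519 to 0.804 CPM (median 0.425), against 3.94, 3.88, 4.77 and 5.49 CPM in control libraries (-3.52 ± 0.23, edgeR adjusted p = 6.05e-09). CG16957 had 0 to 0.239 CPM (median 0.100), against 1.58, 1.67, 0.483 and 0.586 CPM in control libraries (-3.26 ± 0.38, edgeR adjusted p = 5.23e-06). In control libraries of CG16957 replicates 1 and 2 were higher than replicates 3 and 4, and no carrier library reached either pair.

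**Figure D2:**
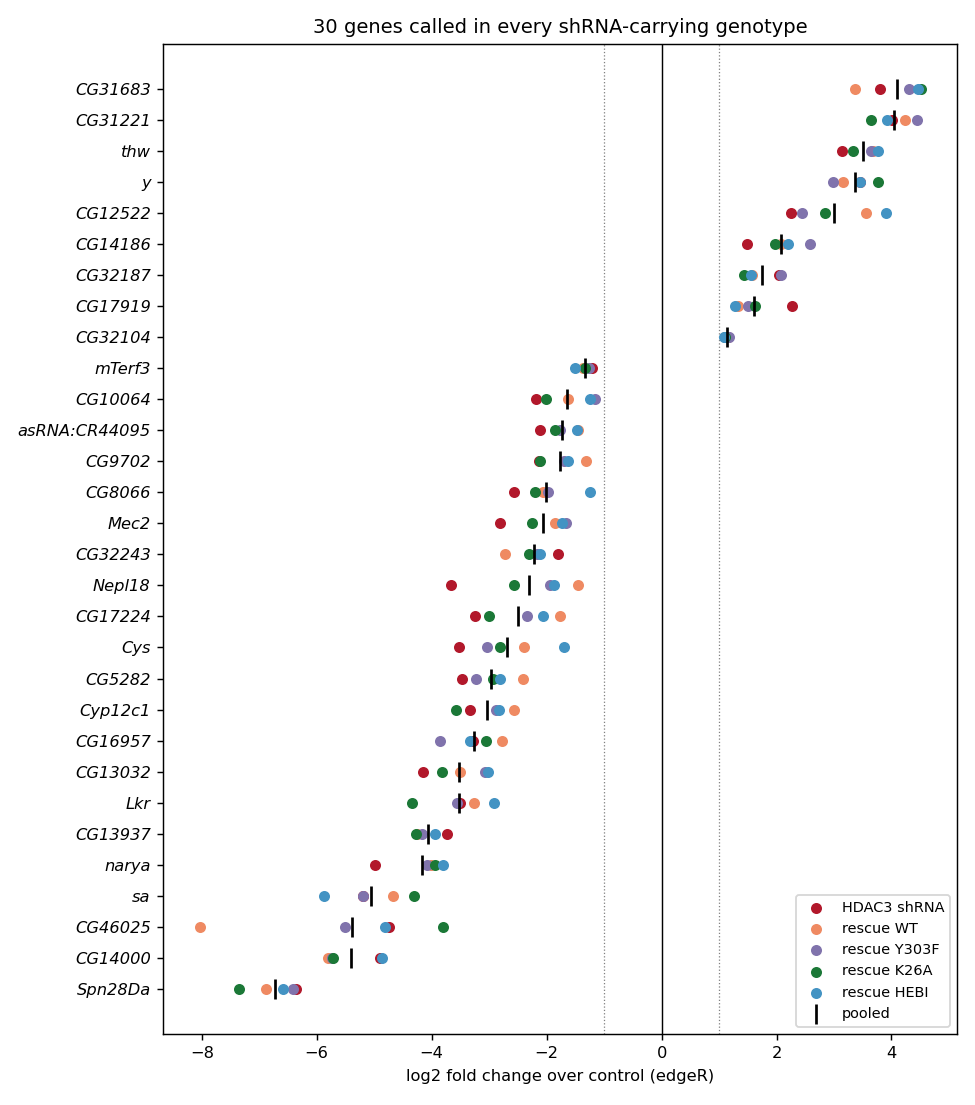
Log2 fold change over control in each of the 5 shRNA-carrying genotypes (coloured points) and in the pooled contrast (black bars) for the 30 genes called in every genotype; dotted lines mark a 2-fold change. The genotypes of a gene lie close together for CG32104 (1.08 to 1.18) and mTerf3, and apart for Nepl18 (-3.67 in HDAC3 shRNA and -1.46 in rescueWT); the point of CG46025 at -8.04 stands for rescueWT libraries that are all at 0.

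Cyp12c1, a cytochrome P450 of the mitochondrial kind, had 0.0447 to 1.29 CPM in carrier libraries (median 0.557), against 2.07, 4.59, 2.84 and 3.57 CPM in control libraries (-3.03 ± 0.38, edgeR adjusted p = 1.15e-05). Nepl18, a neprilysin-like peptidase gene, had 0.292 to 4.65 CPM (median 1.91), against 7.14, 5.78, 9.42 and 10.7 CPM in control libraries (-2.30 ± 0.17, edgeR adjusted p = 3.68e-08). Neither overlapped with control. CG5282 had 0 to 0.807 CPM (median 0.356), against 1.48, 1.67, 3.50 and 4.74 CPM in control libraries (-2.97 ± 0.34, edgeR adjusted p = 4.96e-06). The gene mTerf3, whose protein belongs to the mitochondrial transcription termination factors, had 5.41 to 12.2 CPM (median 7.98), against 18.8, 19.1, 21.2 and 23.2 CPM in control libraries. It had the smallest of the lower changes, -1.34 ± 0.12 (edgeR adjusted p = 4.02e-07), and its genotypes lay between -1.51 and -1.21.

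On 3R 3 lower calls lie side by side. CG8066 (14567611 to 14568847) was the gene with the lowest pooled adjusted p of the 30. Carrier libraries had 7.70 to 27.6 CPM with a median of 13.4, against 61.9, 54.9, 56.2 and 61.4 CPM in control libraries (-2.01 ± 0.09, edgeR adjusted p = 1.01e-11). RescueHEBI, at a mean of 24.6 CPM, was the highest of the carrier genotypes and HDAC3 shRNA, at 9.91 CPM, the lowest. Cys, a cystatin-like inhibitor of cysteine proteases (14569103 to 14569644), had 0.117 to 1.74 CPM (median 0.583), against 3.40, 3.52, 4.59 and 4.10 CPM in control libraries (-2.69 ± 0.21, edgeR adjusted p = 5.07e-08). Of its exon bases 90.7% also lie in exons of other genes, chiefly of the antisense gene asRNA:CR44095, which was itself called (-1.73 ± 0.22, with 56.6% shared bases). The strand setting of the counting is not given in the sources used here, so the Cys and asRNA:CR44095 values are not separate observations.

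The remaining 5 lower genes had changes between -2.49 and -1.65. CG17224 had 0.642 to 11.1 CPM in carrier libraries (median 3.70), against 20.04, 19.4, 9.24 and 16.2 CPM in control libraries, so that the groups overlapped at control replicate 3. CG32243 had 0.241 to 2.24 CPM (median 1.01), against 5.61, 4.71, 4.41 and 3.41 CPM in control libraries. CG9702 had 0.408 to 1.34 CPM (median 0.810), against 2.22, 1.79, 3.26 and 3.25 CPM in control libraries. CG32243 and CG9702 did not overlap with control. Mec2, of the stomatin family of membrane proteins, had 0.233 to 2.02 CPM (median 1.08), against 1.77, 3.28, 7.19 and 5.92 CPM in control libraries. CG10064 had 0.519 to 4.97 CPM (median 2.12), against 5.42, 4.71, 6.52 and 8.90 CPM in control libraries. Both of these overlapped at the edge of the ranges. For CG17224, Mec2 and CG10064 every carrier library was below the control of its own number. The pooled log2 fold changes were -2.49 for CG17224, -2.22 for CG32243, -2.07 for Mec2, -1.77 for CG9702 and -1.65 for CG10064.

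The 16 rescue libraries were also set against the 4 HDAC3 shRNA libraries, without the control libraries. The 30 genes had to differ 2-fold from control in HDAC3 shRNA and in every rescue, so genes with a rescue level back near control were left out by the choice, and the values of the 30 are given as a description. Across all genes that comparison called 623 (6.23%), 520 higher (5.2%) and 103 lower (1.03%). These counts were 65 higher and 47 lower without the replicate block, and 143 higher and 190 lower in replicates 3 and 4 alone, where the balance turned. They were 319 higher and 132 lower without HDAC3 shRNA replicate 1 and 323 higher and 94 lower without HDAC3 shRNA replicate 2. Of the 30 genes 3 were called, and all 3 were higher in the rescues: narya (log2 difference 1.03, edgeR adjusted p = 0.0134), Cys (1.05, edgeR adjusted p = 0.00893) and Nepl18 (1.71, edgeR adjusted p = 2.88e-05). The 4 rescues of Nepl18 averaged 1.503 to 3.17 CPM, HDAC3 shRNA embryos 0.683 CPM and control embryos 8.27 CPM, so its level in the rescues lay between the other groups. The other 27 genes differed by less than 2-fold. The difference ran from -0.83 (CG17919) to 1.71 (Nepl18) with a median of 0.37 over the 30. The difference was above 0 for 14 of the 21 lower genes, and 10 of the 30 passed the adjusted p without regard to size.

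A test with 4 degrees of freedom among the 5 carrier genotypes passed for 3908 genes (39.1%) and for 9 of the 30, whose choice asked for a change of the same sign in all 5. CG8066 (edgeR adjusted p = 3.99e-06), CG17919 (edgeR adjusted p = 6.14e-06) and Nepl18 (edgeR adjusted p = 9.07e-05) were the clearest of the 9. For CG32104 (edgeR adjusted p = 0.943) and CG14000 (edgeR adjusted p = 0.894) no difference among carriers was detectable. CG14000 had only 14 reads over all carrier libraries, too few for this test to decide, where CG32104 had 17717.

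**Figure D3:**
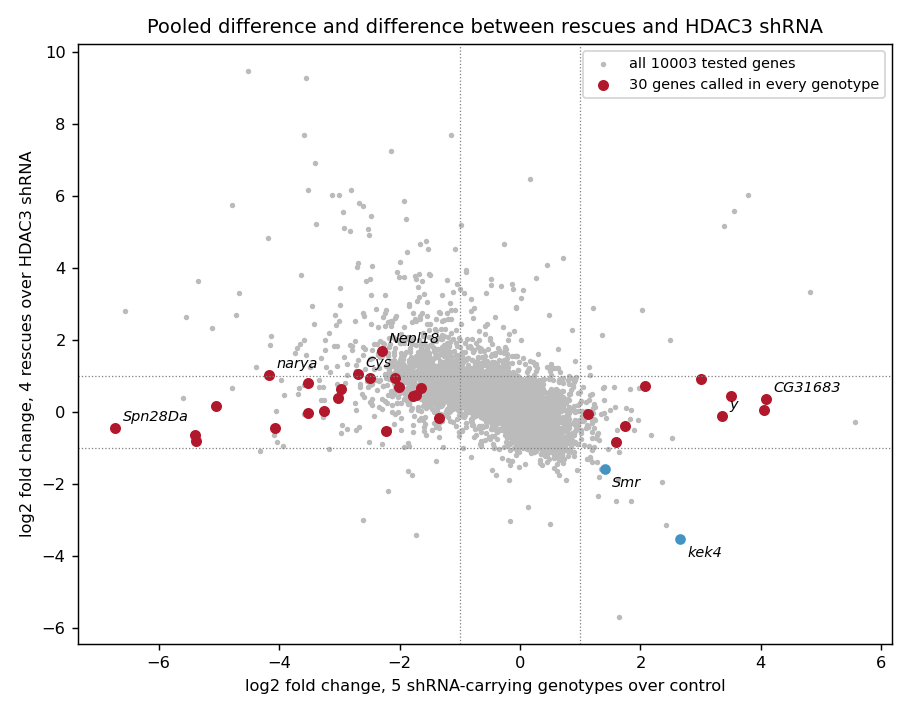
For each of the 10003 tested genes, the log2 fold change of the 5 pooled shRNA-carrying genotypes over control (horizontal) against that of the 4 rescues over HDAC3 shRNA (vertical); red points are the 30 genes called in every genotype and blue points are Smr and kek4. All but 3 of the red points (narya, Cys and Nepl18) lie between the horizontal dotted lines at a 2-fold difference. Both axes contain the carrier libraries: HDAC3 shRNA enters them with opposite sign and the rescues with the same sign.

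Some genes called in the pool were also called in the opposite direction between the rescues and HDAC3 shRNA embryos. The HDAC3 shRNA libraries enter both comparisons with opposite sign, and the rescue libraries enter both with the same sign. The values of each are therefore given side by side.

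Smr, which encodes SMRTER, the corepressor that HDAC3 binds, was the most abundant of these. Carrier libraries ranged from 245 to 5698 CPM with a median of 1193, and control libraries had 851, 514, 362 and 185 CPM. The pooled log2 fold change was 1.41 ± 0.18 (edgeR adjusted p = 1.41e-05), with 2.67 in HDAC3 shRNA, 1.52 in rescueWT, 1.25 in rescueY303F, 1.23 in rescueK26A and 0.36 in rescueHEBI. The rescues were 1.58 lower on the log2 scale than HDAC3 shRNA (edgeR adjusted p = 3.22e-07). Carrier and control libraries overlapped, and the change was under 2-fold in rescueHEBI.

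The gene kek4, of the kekkon family of membrane proteins with leucine-rich repeats, had 0 to 11.2 CPM in carrier libraries (median 0.353), against 0.0985, 0.179, 0.181 and 0.0533 CPM in control libraries. Its log2 fold changes were 5.47 in HDAC3 shRNA and 5.32 in rescueK26A, but -0.23 in rescueY303F and 0.57 in rescueHEBI. The pooled call (2.66 ± 0.73, edgeR adjusted p = 0.00918) thus averages over unlike genotypes, and it ended without control replicate 3 (edgeR adjusted p = 0.0627). The identifier FBgn0000210, to which the reference used here gives no symbol, had 2.91 to 352 CPM in carrier libraries (median 22.3), against 7.44, 4.83, 8.52 and 2.18 CPM in control libraries. It was 4.93 higher on the log2 scale in HDAC3 shRNA and 0.11 in rescueY303F. CG1998 (1.62 ± 0.23) and CG15570 (1.64 ± 0.45) completed the higher genes of this kind, with edgeR adjusted p of 3.66e-05 and 0.00938. CG15570 lost its call without control replicate 3 (edgeR adjusted p = 0.0751).

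On the lower side, CG6733 kept clear of control in every library. Carrier libraries had 0 to 4.04 CPM with a median of 0.979, against 5.86, 5.25, 4.65 and 6.93 CPM in control libraries (-2.61 ± 0.33, edgeR adjusted p = 1.44e-05). It was 1.81 higher in the rescues than in HDAC3 shRNA embryos (edgeR adjusted p = 0.00716). TwdlL, a cuticle protein gene of the Tweedle family, and CG13043 were of another sort. TwdlL had 0 to 23.95 CPM in carrier libraries (median 0.345), against 0.837, 11.8, 90.7 and 0.0533 CPM in control libraries, and control replicates 2 and 3 set its mean. Its pooled change of -3.59 ± 1.22 (edgeR adjusted p = 0.0289) was -2.31 without control replicate 3 (edgeR adjusted p = 0.296), and CG13043 (-2.94 ± 1.04, edgeR adjusted p = 0.0347) was -1.39 (edgeR adjusted p = 0.445). The call of TwdlL also ended without control replicate 2 or HDAC3 shRNA replicate 3. That of CG13043 ended in 11 of the 24 fits that left out 1 library: control replicates 2 and 3, HDAC3 shRNA replicates 2, 3 and 4, rescueWT replicate 3, rescueY303F replicates 2 and 3, and rescueHEBI replicates 1, 2 and 3.

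Among other marker genes, w, v and sc were not called: their log2 fold changes were -0.61, 0.26 and 0.32, with edgeR adjusted p of 0.0942, 0.626 and 0.114. Alleles of v and sc mark the hairpin stock. The study names w for the driver strain, which the control shares, and not for the hairpin stock. The gene sev was too low to test. Beside HDAC3, Snr1, a subunit of the Brahma remodelling complex, was at 251 to 433 CPM in carrier libraries (median 333), against 346, 377, 221 and 292 CPM in control libraries, with a log2 fold change of 0.09 ± 0.07. Hcs, which encodes the enzyme that attaches biotin to carboxylases, had 4.27 to 22.9 CPM in carrier libraries (median 9.36), against 5.71, 4.35, 5.07 and 4.26 CPM in control libraries. Its log2 fold change rounded to 1.0 (± 0.17, edgeR adjusted p = 0.000243) but was just under the 2-fold limit. It passed that limit without control replicate 3 (1.11, edgeR adjusted p = 0.000697) and in replicates 1 and 2 alone (1.37, edgeR adjusted p = 0.00018), and stayed under it in 20 of the 24 fits that left out 1 library. Its log2 fold change was 0.56 in HDAC3 shRNA and 0.83 to 1.48 in the rescues. Hcs lies next to HDAC3, and reads of a genomic rescue fragment cannot be told apart from those of the resident locus.

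Around the attP2 site, 34 genes were tested within 100 kb of the start of Mocs1, and 7 of them (20.59%) were called in the pool, where 11.1% of all tested genes were, and 1, CG12522, in every genotype. Mocs1 itself had 1.75 to 5.91 CPM in carrier libraries (median 3.55), against 4.88, 6.68, 6.40 and 4.48 CPM in control libraries. Its log2 fold change was -0.70 ± 0.20 (edgeR adjusted p = 0.0122), under the 2-fold limit. CG6310, 0.7 kb from the start of Mocs1, had 1.57 to 8.34 CPM in carrier libraries (median 5.01), against 9.46, 10.2, 8.58 and 13.4 CPM in control libraries. No carrier library of CG6310 reached the control range, and the pooled change was -1.16 ± 0.15 (edgeR adjusted p = 1.43e-05), with -0.87 in rescueWT and -1.70 in HDAC3 shRNA. CG32071, 32.9 kb from the start of Mocs1, was called higher (1.37 ± 0.51, edgeR adjusted p = 0.042), at a carrier median of only 0.344 CPM. Of the other called genes there, nol, CG32074 and CG14143 had 8.27, 22.5 and 5.98 CPM in control replicate 3 and less than 1 CPM in every other control library. Within 100 kb of the start of Msp300, the gene that holds attP40, 19 genes were tested, 2 (10.53%, close to the share of all genes) were called in the pool (the collagen genes vkg, -1.37, and Col4a1, -1.42) and none in every genotype.

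Along the chromosomes, the 30 genes were unevenly spread. On 3L 13 of 1957 tested genes (0.664%) were called in every genotype, on 2L 6 of 1725 (0.348%), on 3R 8 of 2419 (0.331%), on X 3 of 1632 (0.184%) and on 2R 0 of 1991. On 2R, edgeR gave 24 genes whose 5 unadjusted p-values were all under 0.05 with a 2-fold change in all 5 genotypes. That count was not taken for the other arms. DESeq2 called 4 of the 1991 genes of 2R in every genotype, and 9 higher and 36 lower of all 10003 tested genes. The count of 0 thus depends on the tool and the threshold. The pooled calls were spread more evenly, with 12.67% of tested genes on 3L, 12.36% on 3R, 11.19% on 2L, 10.7% on 2R and 7.659% on X. The hairpin lies on 3L and the rescue fragments on 2L. No test of the spread over arms was run, since neighbouring genes are not independent.

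**Figure D4:**
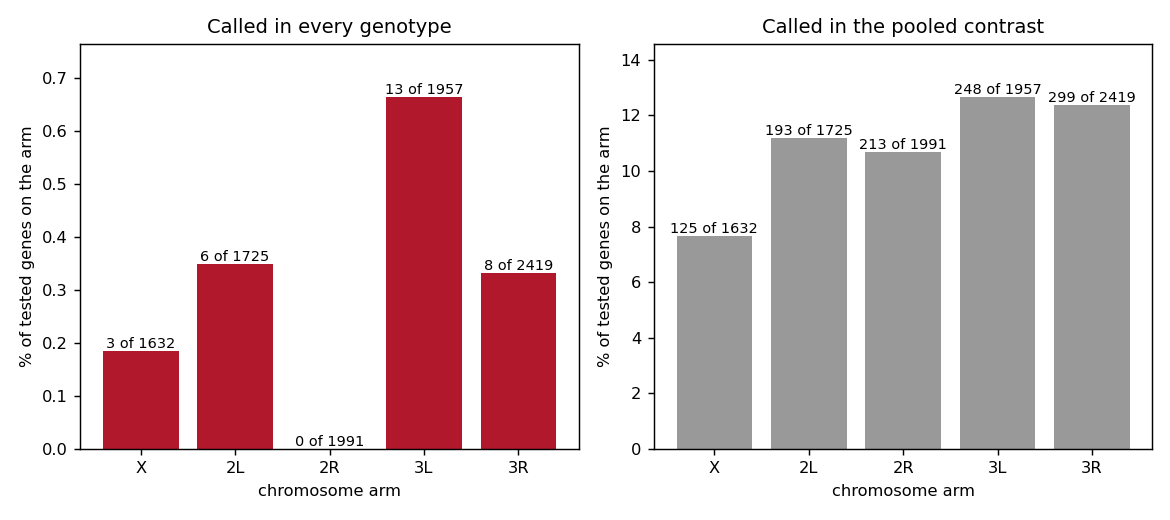
Percent of the tested genes of each large chromosome arm that were called in every shRNA-carrying genotype (left) and in the pooled contrast (right), with counts above the bars. The left share is 0.664% on 3L and 0 on 2R, while the right share lies between 7.659% and 12.67% on all 5 arms.

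In windows of 1 Mb with at least 30 tested genes, the highest share was on 3R from 14 to 15 Mb, where 3 of 70 genes (4.29%) were called in every genotype: CG8066, Cys and asRNA:CR44095. Cys and asRNA:CR44095 overlap and are not separate observations, so the first rank of this window depends on counting both. On 3L from 20 to 21 Mb 3 of 99 (3.03%) were, namely CG14186, higher, and CG5282 and mTerf3, lower. On 3R from 28 to 29 Mb 1 of 34 (2.94%) was, Nepl18. Other members also had a near neighbour. Spn28Da and CG46025 lie 121.8 kb apart on 2L, CG5282 and mTerf3 93.5 kb apart on 3L, and Mec2 and narya 284.9 kb apart on X. In all, 17 of the 30 genes had another of the 30 within 1000 kb, with Cys and asRNA:CR44095 again both counted. The same count was not taken for other tested genes. Directions within such groups were mixed on 3L and alike on 2L and X.

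Groups of genes fixed by name were read against the 10.2% of all tested genes that were lower in the pool. Among genes of tissues that form late in embryogenesis, those lower in the pool were 30 of 63 tested cuticle protein genes, 12 of 20 muscle structure genes, 15 of 15 digestive protease genes, 5 of 11 hemocyte genes and 0 of 13 neuronal genes. In families of detoxification enzymes they were 20 of 55 cytochrome P450 genes and 11 of 22 UDP-glycosyltransferase genes. The median log2 fold change was -1.80 for cuticle, -1.60 for muscle and -3.58 for gut proteases, but -0.36 for the neuronal list, where the median of all tested genes was 0.05. Of these lists only the P450 genes had a member called in every genotype, Cyp12c1. Genes of the stage sampled gave no call: 0 of 25 segmentation genes, 0 of 16 genes of the mesoderm and neuroectoderm, 0 of 14 of the dorsal ectoderm, 0 of 15 maternal regulators and 0 of 15 other deacetylases and corepressors were called in the pool by edgeR, and none by DESeq2. At an unadjusted p under 0.05, edgeR gave 2, 3, 1, 9 and 8 genes of these lists, none of them changed 2-fold, and 7 of the neuronal list, also with none called by DESeq2. Their median changes were -0.16, -0.10, -0.10, 0.27 and 0.13. For the first 3 lists the median was -0.62, -0.57 and -0.54 in replicates 1 and 2 alone. It was 0.25, 0.14 and 0.29 in replicates 3 and 4 alone, so the pooled medians average over opposite signs. In HDAC3 shRNA the 5 medians were -0.74, -0.66, -0.74, 0.82 and 0.2. In rescueHEBI they were 0.14, 0.16, 0.26, 0.06 and 0.12.

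Control replicate 3 moved with these late lists. The mean log2 CPM of the gut protease list was -2.82 to 1.90 in carrier libraries (median -2.11), against -2.19, -0.41, 5.05 and 1.87 in control libraries. For cuticle it was -2.47 to 2.00 in carrier libraries (median -0.66), against -1.01, 1.19, 2.41 and -0.79 in control libraries, and for muscle 0.50 to 5.01 (median 3.38), against 3.19, 4.27, 5.97 and 4.67. Control replicate 3 was above all 20 carrier libraries in all 3 lists. Without it the lower calls were 4 of 63 for cuticle, 6 of 20 for muscle and 5 of 15 for gut proteases, but still 5 of 11 for hemocytes, 16 of 55 for P450 and 11 of 22 for UDP-glycosyltransferases. Replicates 1 and 2 alone, which also leave control replicate 3 out, gave 30 of 52 for cuticle (17 of them among the 30 genes called with all libraries), 12 of 20 for muscle (11 of them), 4 of 7 for gut proteases and 6 of 21 for UDP-glycosyltransferases. The cuticle and muscle counts thus did not fall in every fit without that library. The pooled lower count was 682 without that library, 625 of them among the 1023, and 21 of the 30 genes, 7 higher and 14 lower, still passed in every genotype. For the early blastoderm list the mean log2 CPM was 5.98 to 8.26 in carrier libraries (median 7.19), against 8.22, 8.17, 6.02 and 6.28 in control libraries. Its median log2 fold change was -0.50 in replicates 1 and 2 alone and 0.68 in replicates 3 and 4 alone. The mix of embryo ages in each library was not tested. In whole embryos, fewer cells of a type and less RNA per cell cannot be told apart.

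**Figure D5:**
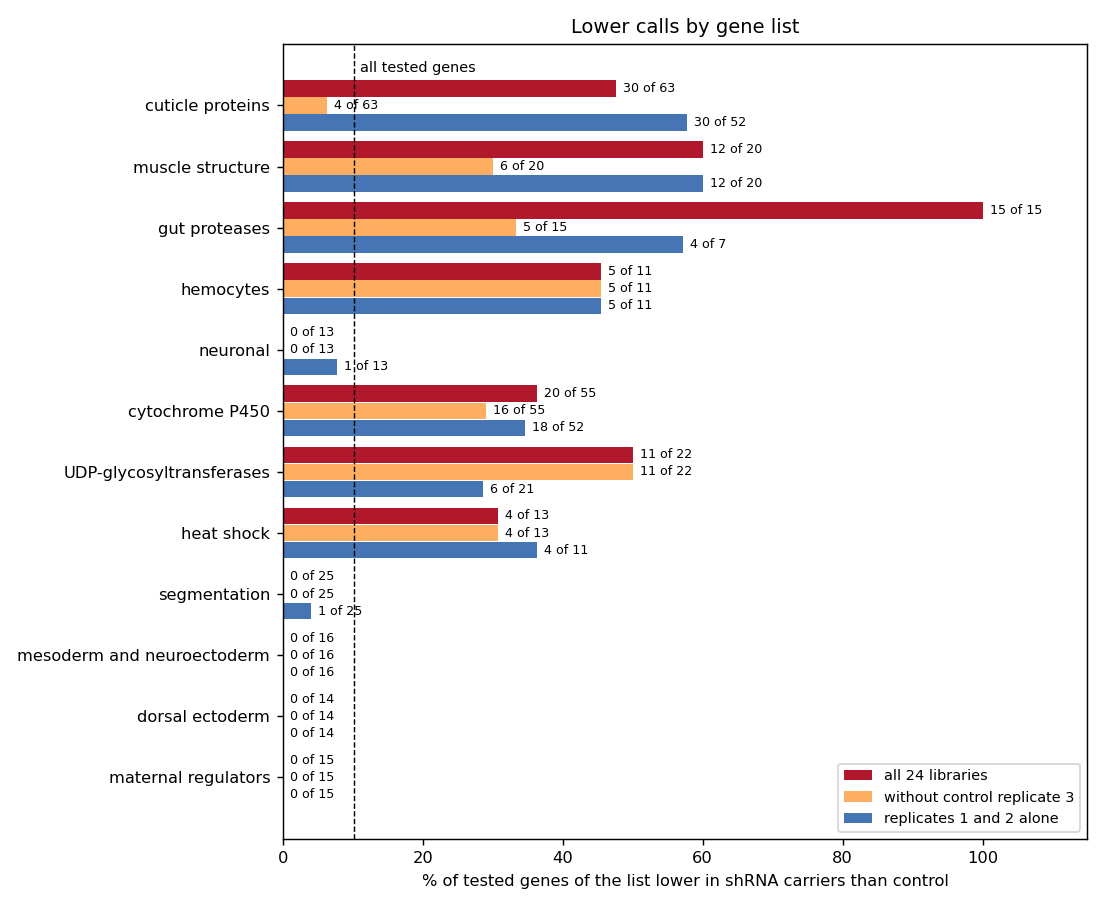
Percent of the tested genes of 12 lists that were lower in the pooled shRNA carriers than in control, with all 24 libraries, without control replicate 3, and in replicates 1 and 2 alone, counts beside the bars and a dashed line at the share of all tested genes. Cuticle has 4 of 63 genes without control replicate 3 but 30 of 52 in replicates 1 and 2 alone, and hemocytes have 5 of 11 in all 3 settings. Of the 4 lists of early genes shown, only segmentation has a lower call, 1 of 25 in replicates 1 and 2 alone. The early blastoderm list, not shown, had 1 of 7 in that setting.

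Digestive proteases of the Jonah family cleave food proteins in the gut. Jon99Ciii had 0 to 2.82 CPM in carrier libraries (median 0.0883), against 0.0985, 0.835, 56.6 and 6.08 CPM in control libraries. Its log2 fold change of -5.54 was -3.81 without control replicate 3, and still called (edgeR adjusted p = 0.000253). Jon99Cii (-5.12) and Jon65Ai (-4.39) had 62.2 and 12.3 CPM in that library. The larval cuticle gene Lcp65Af had 49.8 CPM there and at most 1.43 CPM in any other control library, and its change of -4.71 was -2.04, without a call, once that library was left out (edgeR adjusted p = 0.129). Cpr49Ac, in contrast, had 0 to 0.421 CPM in carrier libraries (median 0.139), against 0.690, 0.716, 1.27 and 0.800 CPM in control libraries, and Cpr72Ec had 0.0560 to 0.969 CPM (median 0.376), against 1.08, 1.85, 1.09 and 1.23 CPM in control libraries. Both were lower in every carrier library than in any control library.

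Muscle structure genes build the contractile apparatus of the late embryo. Tropomyosin 2 (Tm2) had 0.117 to 57.2 CPM in carrier libraries (median 11.1), against 10.98, 38.4, 117 and 42.8 CPM in control libraries, and its changes were -3.55 in HDAC3 shRNA, -0.88 in rescueWT, -2.0 in rescueY303F, -2.09 in rescueK26A and -1.28 in rescueHEBI. The myosin light chain Mlc1 (-1.98) and the troponin C gene TpnC73F (-1.81) were 1.65 and 1.53 higher on the log2 scale in the rescues than in HDAC3 shRNA (edgeR adjusted p = 0.0223 and 0.00779). Both of these stayed called without control replicate 3. The metal-binding metallothionein gene MtnA changed by -2.42 ± 0.37 (edgeR adjusted p = 9.68e-05).

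The 5 lower hemocyte genes were called without control replicate 3 too, where Hml, a hemolectin, was called higher. PPO2, a prophenoloxidase of crystal cells, had 2.33 to 20.3 CPM in carrier libraries (median 9.54), against 32.5, 33.1, 52.4 and 37.4 CPM in control libraries. The groups did not overlap. Its pooled change was -2.0 ± 0.20 (edgeR adjusted p = 9.2e-07), with -3.15 in HDAC3 shRNA, -1.26 in rescueWT, -1.26 in rescueY303F, -2.57 in rescueK26A and -1.79 in rescueHEBI. Pxn, a peroxidase of the extracellular matrix, had 1.35 to 13.7 CPM (median 5.19), against 8.91, 9.48, 17.7 and 18.1 CPM in control libraries (-1.27 ± 0.17), and lz, the transcription factor of crystal cells, had 0.117 to 0.741 CPM (median 0.355), against 0.788, 0.596, 0.906 and 0.746 CPM in control libraries (-1.09 ± 0.24).

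Detoxification genes changed as follows. Cyp6g2 had 0.168 to 0.942 CPM in carrier libraries (median 0.437), against 3.05, 1.19, 1.39 and 2.18 CPM in control libraries, with no overlap (-2.04 ± 0.24, edgeR adjusted p = 5.39e-06). It passed the 2-fold limit in size in each genotype, from -2.54 in HDAC3 shRNA to -1.44 in rescueHEBI. Cyp6a20 (-1.77 ± 0.21) was -0.21 in rescueWT and -2.76 in HDAC3 shRNA. The glycosyltransferase Ugt35C1 had 0 to 3.50 CPM in carrier libraries (median 0.410), against 2.91, 5.84, 3.62 and 4.48 CPM in control libraries (-3.31 ± 0.37, edgeR adjusted p = 3.4e-06), while Ugt317A1 (-1.20) and Ugt49B2 (-1.19) changed less and Ugt36E1 was higher (1.02 ± 0.08, edgeR adjusted p = 5.59e-08), just past 2-fold. The change of Ugt36E1 was under 2-fold in 11 of the 24 fits that left out 1 library, with a range of 0.96 to 1.04: those without control replicate 1, HDAC3 shRNA replicate 4, rescueWT replicate 1 or 2, rescueY303F replicate 1, 2 or 4, rescueK26A replicate 1 or 4, and rescueHEBI replicate 1 or 2. Of 34 glutathione transferase genes 7 were lower (20.59%), with GstZ2 at -1.64, GstE3 at -1.29 and GstE14 at -1.10. The call of GstE14 ended without control replicate 1 and without control replicate 2.

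The heat shock list had 4 of 13 tested genes lower. The small heat shock gene Hsp67Bc had 0.525 to 8.996 CPM in carrier libraries (median 2.92), against 8.96, 20.7, 8.94 and 14.0 CPM in control libraries (-2.0 ± 0.20, edgeR adjusted p = 1.08e-06). Only its highest carrier value touched the control range. Hsp68 and Hsp70Bc, which are induced by stress, were called in the pool (-1.57 and -1.61), but while replicates 1 and 2 gave -2.60 and -2.73 without the others, replicates 3 and 4 gave 0.04 and 0.05. Both calls ended without control replicate 1 and without control replicate 2. Genes of the same copy family as Hsp70Bc can exchange reads, so its value is uncertain.

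The immune list had 6 of 15 tested genes lower, and 2 of 15 without control replicate 3. PGRP-LC, a receptor of bacterial peptidoglycan, had 0.175 to 4.73 CPM in carrier libraries (median 1.67), against 3.69, 3.94, 7.07 and 5.33 CPM in control libraries (-1.45 ± 0.27, edgeR adjusted p = 0.000553). PGRP-LB (-2.47) and Tep3 (-2.25) rested on control replicate 3, and lost their calls without it (edgeR adjusted p = 0.188 and 0.266). Of 10 genes of the yellow family 4 were lower, and 1 without control replicate 3, among them yellow-f (-1.47), yellow-d (-1.73) and yellow-c (-1.05, with 74.8% of its exon bases in other genes), whereas y itself was higher. The calls of yellow-d and yellow-c ended without control replicate 3, and that of yellow-c also without control replicate 1. Of 84 ribosomal protein genes 2 were lower, the weakly expressed variants RpS10a (-1.16) and RpL22-like (-1.06), which is 2.381%, and RpL22-like was -0.38 without control replicate 3 (edgeR adjusted p = 0.561). Its call also ended without control replicate 4, HDAC3 shRNA replicate 3, rescueWT replicate 3 or 4, rescueY303F replicate 3, rescueK26A replicate 2 or 3, or rescueHEBI replicate 3.

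Of the germ plasm and germline list 1 of 14 tested genes was higher, of the sex determination list 1 of 14 and of the eggshell and yolk list 1 of 9, where 0.83% of all tested genes were. The median changes of these lists were 0.21, -0.04 and 1.23. The female germline gene stil had 2.01 to 14.0 CPM in carrier libraries (median 6.55), against 2.51, 3.28, 3.14 and 2.18 CPM in control libraries (1.16 ± 0.26, edgeR adjusted p = 0.00261). It was 2.16 higher in HDAC3 shRNA and 0.21 in rescueHEBI on the log2 scale. The sex determination gene dsx changed by 1.20 ± 0.28 (edgeR adjusted p = 0.00279) and lost its call without control replicate 2. The eggshell gene dec (2.53 ± 0.79) and the cuticle gene Lcp9 (1.58 ± 0.47) were higher at low levels, with carrier medians of 0.732 and 0.365 CPM. The call of dec ended without control replicate 1 or 3, and that of Lcp9 without control replicate 1 or 4. Of the genes that the study followed, Cad99C, a cadherin, was lower in the pool (-1.30 ± 0.19, edgeR adjusted p = 5.34e-05). The pooled changes of ebi (0.31), sog (-0.30), sd (0.59), CG32772 (0.58) and CG17698 (0.39) did not reach 2-fold. The pool includes the rescues, whereas the study reports sd and CG32772 as upregulated in HDAC3 shRNA embryos. In HDAC3 shRNA alone sd (1.19), CG32772 (1.58) and CG17698 (1.32) passed 2-fold, with edgeR adjusted p of 0.000269, 1.2e-05 and 0.00473. There ebi (0.67) and sog (-0.84) did not. In the rescues sd was -0.05 to 0.77, CG32772 0.04 to 0.64 and CG17698 -0.09 to 0.42.

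Libraries of the same replicate number deviated together, so the pooled difference was also taken within replicates 1 and 2 and within replicates 3 and 4. The test of carrier by side, replicates 3 and 4 against 1 and 2, passed for 4 genes (0.04%), 2 of them among the 30: CG32187 (difference -1.80 on the log2 scale, edgeR adjusted p = 0.0135) and CG17224 (2.20, edgeR adjusted p = 0.0135). Both kept their direction on each side. All 30 genes had the same direction on both sides, 30 passed the pooled test in replicates 1 and 2 alone and 28 in replicates 3 and 4 alone, the exceptions being CG32104 (0.77) and CG32187 (just under 2-fold). The 30 were chosen on all 24 libraries, which hold both sides, so these counts replicate nothing. Of the 83 higher and 1023 lower genes of the pool, replicates 1 and 2 alone kept 46 and 629. Replicates 3 and 4 alone kept 40 and 717. Leaving out single libraries moved the stricter call more. In each of 24 such fits 16 of the 30 genes stayed called in every genotype: CG31683, CG31221, thw, y, CG14186, CG17919, Spn28Da, sa, narya, CG13937, Lkr, CG13032, Cys, Nepl18, CG8066 and mTerf3. The weakest was CG32243, which lost that call in 21 of 24 fits while its pooled change stayed between -2.37 and -2.08.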

How the data were processed

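RNA-seq was done on whole embryos aged 2 to 4 h, in 6 genotypes with 4 replicates. Per the labels and the study's methods, the authors purified total RNA, made TruSeq Stranded Total RNA libraries, aligned reads to dm6 with STAR and counted them per gene with featureCounts. No version, annotation release or strand setting was found in the labels or methods. The deposited values are raw read counts for 17559 FlyBase identifiers, with 9987223 to 26573692 counts per library. Counting error limits the precision of the lowest genes.

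Symbols and positions came from Ensembl release 115 (BDGP6.54), which named 17253 identifiers. Genes were filtered with filterByExpr, scaled with TMM and fitted with edgeR 4.0.16 (quasi-likelihood test, a mean per genotype, replicate number as a block), and p-values were adjusted over all 10003 genes by Benjamini-Hochberg. The pooled contrast gave each of the 5 genotypes equal weight. A gene called in every genotype had the highest of its 5 p-values adjusted and a 2-fold change of the same sign in all 5. SE values came from the F statistic. CPM values carry the TMM factors. The fit was also run on simulated counts, which held no outlying control library. That run does not bear on calls that rest on such a library.

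Replicate numbers come from the labels. Deviations from genotype means correlated within all 60 same-number pairs (r = 0.18 to 0.80, median 0.62), and for 21 of 24 libraries the best match had the same number. Libraries were therefore treated as paired by number. Replicates of a genotype always differed by more than sampling noise.

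Named genes were, of those called in every genotype and apart from control, up to 10 each way by size with a mean of at least 1 CPM; up to 5 each way called in the opposite direction between rescues and HDAC3 shRNA; the marker, neighbour and study-named genes; and up to 3 per list and direction by adjusted p. The other genes called in every genotype, and those near the landing sites, were added after their values were seen. The members and lists were chosen with earlier results of these data known. Alternatives were no block, DESeq2 1.42.0, library totals, no filter on low counts, replicate pairs, 1 mean for all carriers, and each genotype or library left out. Replicates 1, 2 and 4 alone, and list counts and medians without control replicate 3 or within replicate pairs, were chosen after seeing the data.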

Additional observations from a re-analysis of the deposited data

Results flagged for a closer look

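In 522 groups of 4 libraries (86 genes and the library totals), 41 held a library whose gap to the nearest other exceeded Dixon's critical share of the group's range; chance alone flags about 1 in 20 groups. The pooled difference of CG32187 and of CG17224 differed between replicate sides, by -1.80 and 2.20 on the log2 scale for replicates 3 and 4 minus replicates 1 and 2.

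Control replicate 3 was the outlying library most often, in 7 groups, and was high in each: TwdlL 90.7, Lcp65Af 49.8, Jon99Ciii 56.6, Jon99Cii 62.2, Jon65Ai 12.3, PGRP-LB 4.89 and Tep3 6.28 CPM. Control replicate 1 was low for yellow-f at 0.394 CPM.

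RescueHEBI replicate 4 was high for TwdlL (23.95 CPM), CG13043 (10.2 CPM), Lcp65Af (1.88 CPM) and CG46025 (0.215 CPM). RescueHEBI replicate 3 was high for Hsp68 (97.5 CPM), Hsp70Bc (17.8 CPM), stil (4.31 CPM) and lz (0.585 CPM), and replicate 2 for sa (0.0574 CPM).

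RescueY303F replicate 3 was high for TwdlL (9.56 CPM) and CG14000 (0.102 CPM), replicate 4 was high for Lcp9 (0.969 CPM) and low for sd (48.2 CPM), and replicate 1 was high for sa (0.0873 CPM). RescueK26A replicate 3 was high for Lcp65Af (0.447 CPM), Jon65Ai (0.134 CPM) and CG14000 (0.0893 CPM), replicate 2 for TpnC73F (8.01 CPM) and replicate 4 for CG32187 (4.51 CPM).

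RescueWT replicate 3 was high for kek4 (2.32 CPM) and RpS10a (1.07 CPM), replicate 1 was high for Cpr72Ec (0.713 CPM) and low for RpL22-like (0.119 CPM), and replicate 2 was low for Cpr49Ac (0.0478 CPM). HDAC3 shRNA replicate 2 was high for mTerf3 (12.2 CPM) and Lkr (0.780 CPM), replicate 3 for GstZ2 (0.688 CPM), Jon65Ai (0.197 CPM), PGRP-LB (0.197 CPM) and TwdlL (0.0491 CPM), replicate 4 for CG13043 (0.0784 CPM) and replicate 1 for sa (0.117 CPM), while replicate 1 was low for Ugt35C1 (0.117 CPM). In 10 of the 41 groups the other 3 libraries were at 0, so that a few reads set the value apart.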

How the results depend on the processing

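Counts of called genes depended on the block, the genotypes and single libraries. Without the replicate block the pool called 38 higher and 671 lower genes, 4 higher and 8 lower genes passed in every genotype, and the rescues over HDAC3 shRNA gave 65 higher and 47 lower; the block changed the pooled calls of the 30 genes in no case. DESeq2 called 36 genes lower in every genotype, the 21 among them. Without a filter on low counts the rescues had 174 lower genes. Replicates 1 and 2 alone gave 10 genes lower in every genotype and 1055 higher in the rescues, and replicates 3 and 4 alone gave 5 higher and 3 lower in every genotype and 143 higher and 190 lower in the rescues; both use fewer libraries. With 1 mean for all carriers 628 genes were lower. Leaving rescueWT out of the 5 genotypes gave 97 genes lower in all of the remaining 4, and leaving rescueHEBI out gave 16 higher; both ask less of a gene by construction. Replicates 1, 2 and 4 of all genotypes gave 7 genes lower in every genotype and 799 higher in the rescues. The causes were not tested otherwise.

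With 1 library left out at a time, the pool had 70 to 90 higher and 682 to 1163 lower genes, every genotype 6 to 11 higher and 12 to 23 lower, and the rescues 319 to 771 higher and 94 to 132 lower. The lowest pooled lower count came without control replicate 3. The lower genes of every genotype were 12 without rescueWT replicate 1 and 13 without rescueWT replicate 3, control replicate 1 or control replicate 2, and the rescues had 319 and 323 higher genes without HDAC3 shRNA replicate 1 and 2. Hsp68 and Hsp70Bc turned to 0.04 and 0.05 in replicates 3 and 4 alone. Of the 30 genes 28 kept their pooled call under all 37 alternatives; CG32104 and CG32187 did not. Scaling by library totals moved the median over all genes to -0.10 in log2, where TMM gave 0.05, and left 6 higher and 20 lower of the 30 called in every genotype. Genes such as sa or CG14000, near 1 CPM in control, are limited by depth: a carrier library at 0 allows up to 3 counts.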
